A study of Mus musculus with 12 samples.

Results

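The course after optic nerve crush was followed in retinal cell pools that carried Olig1, by setting 3 libraries taken 14 days after the crush against 3 libraries taken 7 days after it. These are 6 of the 12 libraries of the series, and the comparison covers the 14985 genes that passed the filter on low counts, of 54232 in the count table. All animals were wild-type adult male mice. An AAV2 virus carrying Olig1 (AAV-Olig1) had been injected into the vitreous, the gel that fills the eye, for a recorded 14 days at both times, and the optic nerve was crushed 7 or 14 days before collection. Taken as recorded, the time between injection and crush differed between the days. It cannot be told apart from time after the crush in this comparison. Cells were separated with beads carrying an antibody to CD90.2 (the Thy1 protein), a Unipick instrument then collected the fluorescent ones, and each library came from 1 tube of roughly 10 to 20 cells, with SMART-Seq HT cDNA amplified by 20 PCR cycles. The other 6 libraries had the same treatment with AAV-GFP, which encodes a fluorescent protein only. No uncrushed pool enters the comparison. Whether replicate libraries stem from different animals is not stated in the labels. The p-values therefore reflect variation among these libraries alone, and that variation may be technical. They also speak of 3 batches without saying which library is in which.

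Retinal ganglion cells are the neurons whose axons form the optic nerve. After a crush many of them die over the following weeks, and the survivors switch on injury genes such as the transcription factors Jun, Atf3 and Sox11, while Müller glia, the radial glia that span the retina, and microglia respond around them. Olig1 is a basic helix-loop-helix transcription factor best known from oligodendrocyte development.

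The 6 libraries held 12534515 to 24553110 counts and 14328 to 17244 genes with a count. Across genes they correlated at 0.717 to 0.793 within a day (6 pairs) and at 0.610 to 0.767 between days (9 pairs). Mitochondrially encoded genes took 10.9% and 9.30% of the counts in day 14 replicates 1 and 3, 4.17% in day 14 replicate 2 and 2.51% to 7.45% at day 7. The fit found a common biological coefficient of variation of 1.351.

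Day 7 replicate 2 held nearly all of the expressed genes of replicate 1, but not the other way round. Of the 5858 genes with at least 20 CPM (counts scaled to a common library total) in replicate 1, all had counts in replicate 2, and 0 lay under 1% of the replicate 1 level. The lowest ratio of replicate 2 to replicate 1 was 0.0776, the most common was 0.225, and 3810 genes (65.0%) lay within 1.5 times of that. Of the 3481 genes with at least 20 CPM in replicate 2, 308 (8.85%) lay under 1% of that level in replicate 1. Of those, 155 had 0 counts. In the other ordered pairs of the 12 libraries, this reverse one included, 0.201% to 23.1% of such genes (median 5.11%) lay under 1%. The 1st percentile of the ratio of replicate 2 to replicate 1 was 0.142, and at most 0.0252 in any other ordered pair. A gene high in replicate 1 was therefore also present in replicate 2, and each of the 5 genes that passed the test is also given without replicate 2 and with both summed to 1 library. Genes named below that lay within 1.5 times of the most common ratio include Olig1, Ifit1, Tgtp1, Mmp12, Tac1, Egr1, Egr4, Bbc3, Calb1, Car14 and Prdx1. Whether their counts in replicate 2 are independent of replicate 1, and whether material or reads of one reached the other, was not tested.

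**Figure D1:**
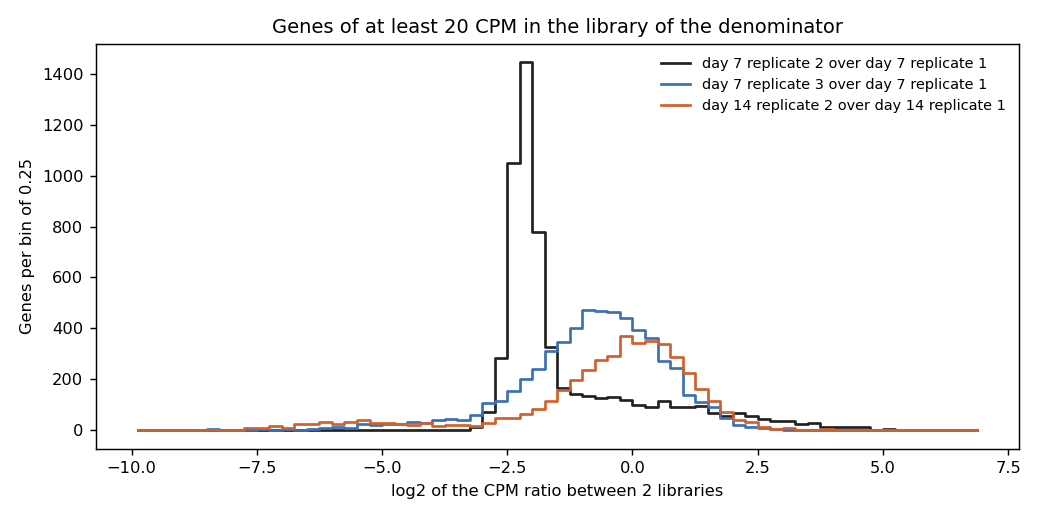
Genes per bin of the log2 ratio of CPM between 2 libraries, for genes of at least 20 CPM in the library of the denominator and with a count in the other. The ratio of day 7 replicate 2 to replicate 1 piles up near its most common value of 0.225 (about -2.2 on this axis) with almost no genes below it, while the 2 other pairs spread widely and have tails to the left.

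Few genes passed the test between the days, and most of those were lower at day 14. Bsg, which encodes the glycoprotein basigin, rose, while Shank1, Sox11, Ifit1 and the ribosomal RNA gene CT010467.1 fell. That is 5 of 14985 genes (0.0334%) at a Benjamini-Hochberg adjusted p under 0.05 in edgeR's quasi-likelihood test, 1 higher (0.00667%) and 4 lower (0.0267%). At an unadjusted p under 0.05 there were 1766 genes (11.8%), 639 higher (4.26%) and 1127 lower (7.52%). In 832 genes (5.55%) every day 14 library lay above every day 7 library, and in 1587 (10.6%) every one lay below. These shares of all genes are the background for the counts given for gene lists below. With day 7 replicates 1 and 2 summed, 4 genes passed and Sox11 did not. No gene passed with DESeq2 size factors in place of TMM scaling, when only these 6 libraries were fitted, or without day 14 replicate 1 or 3.

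The vector's gene was checked first. Olig1 stood at 1029, 249 and 723 CPM in day 7 replicates 1, 2 and 3, and at 56.4, 520 and 120 CPM in the same order at day 14 (log2 difference -1.26 ± 1.02 SE, edgeR adjusted p = 0.705). Counts were present in all 6 pools, and the days overlapped. The ratio of day 7 replicate 2 to replicate 1 was 0.242, near the most common ratio of that pair, and whether the counts in replicate 2 are independent of replicate 1 was not tested. The AAV-GFP pools held at most 0.351 CPM. Reads from the vector and from the animal's own Olig1 cannot be told apart in these counts.

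The labels call the cells retinal ganglion cells, and the pools held their marker genes unevenly. The 20 ganglion cell markers summed to 3321, 5129 and 3656 CPM at day 7. At day 14 they summed to 279, 3996 and 274 CPM, so the sum of replicates 1 and 3 lay far below every day 7 pool and that of replicate 2 within their range. Sncg, a synuclein abundant in ganglion cells, made up 2261 CPM of the replicate 2 sum. As a mean of log2(CPM + 1) over the list, replicate 2 (4.71) lay below all day 7 pools (5.00, 5.34 and 5.02) and above replicates 1 and 3 (2.29 and 2.71). The AAV-GFP pools held 266 to 356 CPM at day 7 and 219 to 451 CPM at day 14. Sncg itself showed the split, with 653, 817 and 801 CPM at day 7 and 58.8, 2261 and 66.9 CPM at day 14. In pools such as these, fewer cells of a type and less RNA per cell cannot be told apart. Müller glia markers, led by the lipid carrier Apoe, were present in all 6 pools and summed to 49894, 130967 and 63604 CPM at day 7, then to 138164, 99087 and 92931 CPM at day 14.

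Of the 17 ganglion cell markers tested, 14 had lower values at day 14 and 0 passed the test; their median log2 difference was -2.26, beside -0.01 for all genes tested. It was -1.31 without day 7 replicate 2 and -3.67 without day 14 replicate 2. With day 14 replicate 2 alone it was -0.96, against -0.95 for all genes. The filter passed 19411 genes in that fit, so medians given here and below for replicate 2 alone cover a larger set of genes. Nefm, a neurofilament subunit of large axons, was the 1 member at an unadjusted p under 0.05, with 114, 896 and 479 CPM at day 7 and 7.66, 62.8 and 3.88 CPM at day 14 (log2 difference -4.48 ± 1.51 SE). Its exons share 1108 bases with Nefl on the other strand. Thy1, the target of the beads, stood at 76.7, 136 and 66.4 CPM at day 7, against 7.46, 28.1 and 1.01 CPM at day 14 (edgeR unadjusted p = 0.0561), and Stmn2, a microtubule regulator of growing axons, at 817, 791 and 627 CPM against 31.2, 223 and 34.9 CPM. Neither passed, although the days did not overlap. Pou4f1 was too low to be tested.

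Rod photoreceptor markers ran the other way. Pde6g, the inhibitory subunit of the rod phosphodiesterase, stood at 106, 82.2 and 155 CPM at day 7, against 955, 162 and 1950 CPM at day 14 (log2 difference 3.27 ± 0.77 SE, edgeR adjusted p = 0.305). Its day 14 replicate 2, the pool with the high ganglion cell marker sum, was the lowest of its day. All 16 rod markers had higher values at day 14, 8 of them at an unadjusted p under 0.05 and 0 past the test, with a median of 2.53. Among all genes 4.26% were higher at that p. With day 14 represented by replicate 2 alone the rod median was -0.18 and the cone median -1.27, against 2.53 and 2.03 with all 3 libraries.

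Horizontal cell and Müller glia markers had higher values at day 14, replicate 2 included. Calb1, the calcium buffer calbindin, stood at 169, 40.4 and 115 CPM at day 7, against 12331, 5057 and 3678 CPM at day 14 (log2 difference 6.26 ± 1.53 SE, edgeR adjusted p = 0.371). The 8 horizontal cell markers all had higher values, with a median of 1.92, and 3 had days that did not overlap. Of the 17 Müller glia markers, 13 had higher values, 8 of them at an unadjusted p under 0.05, 8 without overlap between the days, and 0 past the test (median 1.31). Over all genes, 4.26% were higher at that p and 5.55% were higher without overlap. Glul, the glutamine synthetase that recycles glutamate, stood at 245, 936 and 543 CPM against 3547, 1247 and 3662 CPM. Car14, a membrane carbonic anhydrase, stood at 37.3, 8.38 and 20.2 CPM against 178, 132 and 130 CPM, and Clu, the secreted chaperone clusterin, at 4671, 6754 and 5703 CPM against 24488, 12925 and 12814 CPM. In Apoe the days overlapped and the difference was -0.01 ± 0.66 SE. With replicate 2 alone at day 14 the Müller glia median was 0.78 and the horizontal cell median 1.27, while that of all genes was -0.95.

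Microglia and macrophage markers were carried by 1 library. Their sum was 179, 79.3 and 2064 CPM at day 7 and 17.9, 30.6 and 15.5 CPM at day 14. All 17 tested members had lower values at day 14, 10 without overlap, 1 at an unadjusted p under 0.05 and 0 past the test, with a median of -5.59, or -6.10 with genes at 0 set to their bound. The shares of all genes were 10.6% lower without overlap and 7.52% lower at that p. C1qa, a chain of the complement starter C1q, stood at 1.20, 1.04 and 51.2 CPM against 0.145, 0.815 and 0.479 CPM. Cx3cr1, the fractalkine receptor of microglia, stood at 0.544, 0.558 and 4.73 CPM and had 0 counts in all 3 day 14 pools. The list median was -2.02 without day 7 replicate 3. Across the 18 cell type marker sums, 3 libraries against 3 cannot give an exact permutation p below 0.1, and the smallest adjusted p was 0.257.

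**Figure D2:**
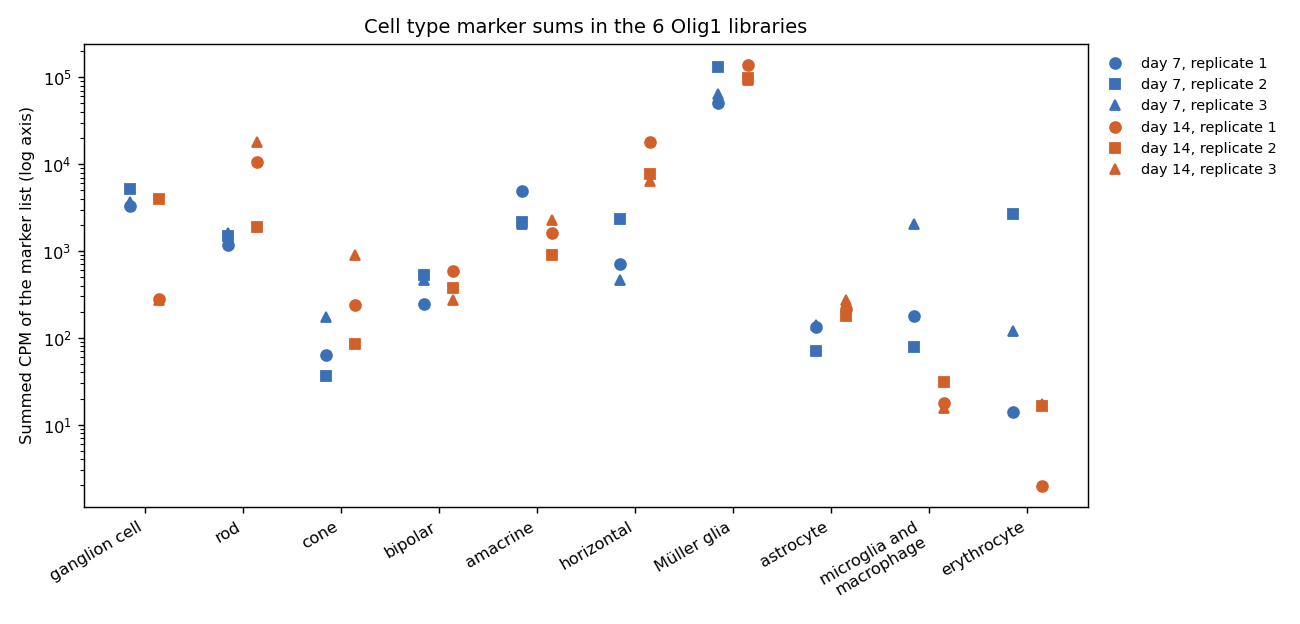
Summed CPM of 10 cell type marker lists on a log axis, 1 point per library, day 7 in blue and day 14 in orange, with a shape for each replicate. Day 14 replicate 2 (square) sits with the day 7 pools for the ganglion cell marker sum (3996 CPM) and near them for rod markers (1886 CPM), and day 7 replicate 3 (triangle) holds the most microglia and macrophage markers (2064 CPM).

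Bsg was the 1 gene that rose. It encodes basigin (CD147), a partner of lactate transporters at the membrane of photoreceptors, Müller glia and pigment epithelium, and lies at chr10:79704491-79711969 (GRCm38). Its level was 1431, 1142 and 1469 CPM at day 7 and 14462, 5740 and 8610 CPM at day 14, so the lowest day 14 pool stood well above the highest day 7 pool. The log2 difference was 2.91 ± 0.41 (SE; edgeR adjusted p = 0.0270). In the AAV-GFP pools it was 4327, 5326 and 5145 CPM at day 7 and 11435, 9612 and 4494 CPM at day 14 (1.01 ± 0.38 SE, edgeR adjusted p = 0.442), and the difference between the viruses was 1.90 ± 0.54 SE (adjusted p = 0.341). The Bsg call held without day 7 replicate 2 (adjusted p = 0.0216), with replicates 1 and 2 of day 7 summed (adjusted p = 0.0170) and without day 14 replicate 2 (adjusted p = 0.0360). Without day 7 replicate 1 its adjusted p was 0.0514, and without day 14 replicate 1 or 3 it was 0.0668 and 0.0570.

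Shank1, a scaffold protein of excitatory synapses, fell. It lies at chr7:44310253-44360572 and stood at 324, 315 and 542 CPM at day 7, against 15.2, 14.1 and 20.2 CPM at day 14. Both groups were tight and far apart (log2 difference -4.48 ± 0.64 SE, edgeR adjusted p = 0.0270). The AAV-GFP pools held 122, 38.8 and 169 CPM at day 7 and 12.4, 9.93 and 5.72 CPM at day 14 (-3.24 ± 0.61 SE, edgeR adjusted p = 0.352). The call held without day 7 replicate 2 (adjusted p = 0.0216), with replicates 1 and 2 summed (0.0236) and without replicate 1 or 3 (0.0353 and 0.0367), and was lost without any 1 of the day 14 libraries (0.139 to 0.187). Values of other postsynaptic genes lay on both sides: of 28 tested, Shank1 included, 18 had lower and 10 higher values, 5 and 2 of them at an unadjusted p under 0.05, with a median of -0.74. At that p 7.52% of all genes were lower and 4.26% higher. Gria3, an AMPA receptor subunit, stood at 134, 746 and 88.8 CPM against 32.2, 39.4 and 76.1 CPM, and Grik1, a kainate receptor subunit, at 0.815, 4.07 and 3.45 CPM against 39.5, 106 and 6.65 CPM.

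CT010467.1 is annotated as a ribosomal RNA gene at chr17:39846353-39848827 and fell from 6776, 26958 and 12669 CPM to 817, 1367 and 847 CPM (log2 difference -4.10 ± 0.63 SE, edgeR adjusted p = 0.0282). The AAV-GFP pools showed 7920, 12404 and 11707 CPM at day 7 and 633, 694 and 686 CPM at day 14 (-3.68 ± 0.62 SE, edgeR adjusted p = 0.340). Neither virus had days that overlapped. The call held without day 7 replicate 2 (-2.99, adjusted p = 0.0216), with replicates 1 and 2 of day 7 summed (-3.48, adjusted p = 0.00178) and without replicate 1 or 3, and was lost without any 1 of the day 14 libraries (0.165 to 0.25). The gene shares 1822 bases of exon with Gm42418 on the opposite strand, which had 0 counts, so its reads cannot be assigned with certainty. Lars2, the mitochondrial leucyl-tRNA synthetase, stood at 215, 1874 and 127 CPM against 37.2, 26.5 and 29.0 CPM (-4.95 ± 1.01 SE, edgeR adjusted p = 0.197), and at 272, 282 and 445 CPM against 23.1, 16.5 and 7.68 CPM with AAV-GFP. The Lars2 difference was -2.17 without day 7 replicate 2 (edgeR adjusted p = 0.584), and without replicate 3 it was -5.48 (0.0354).

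**Figure D3:**
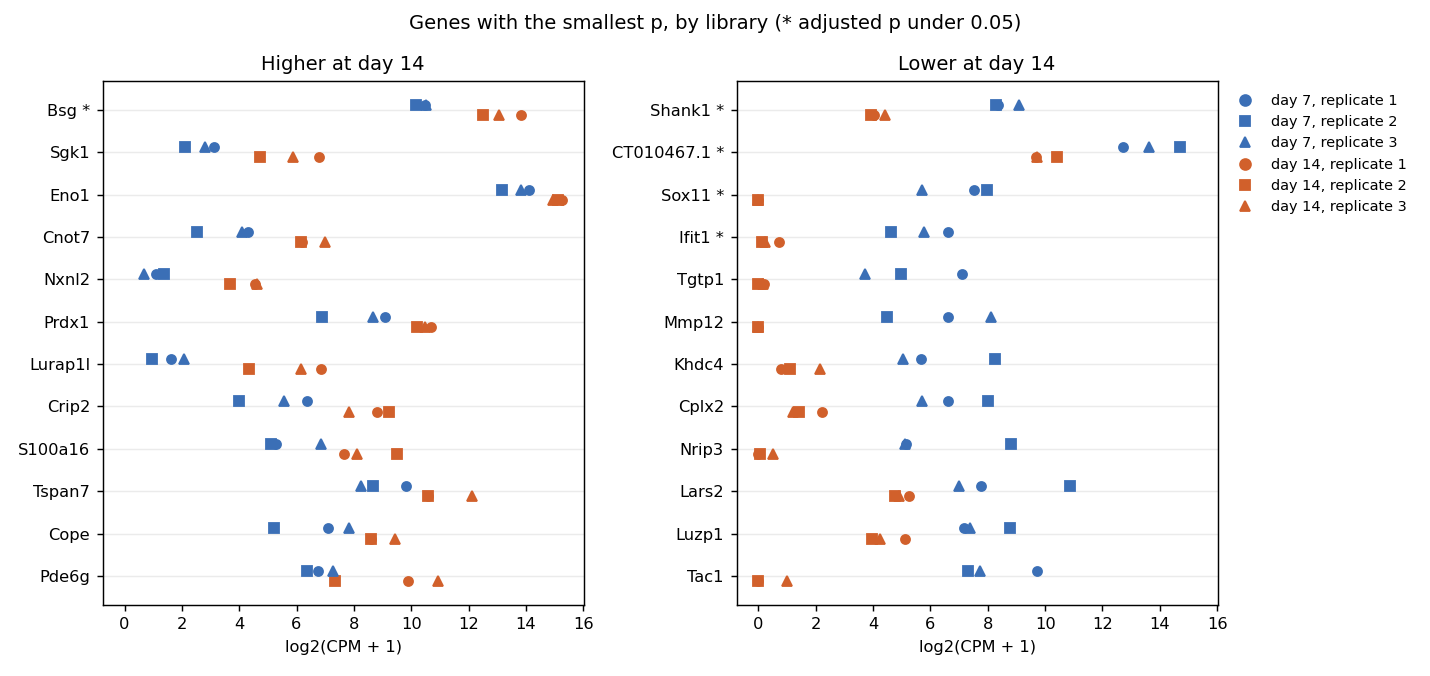
log2(CPM + 1) in each Olig1 library of 12 genes on each side whose days did not overlap. A star marks an adjusted p under 0.05. Genes that passed were filled to 12 by smallest p with protein-coding genes only, predicted gene models left out. By this rule CT010467.1, which passed, is the only non-coding one. Day 14 values of Bsg lie between 5740 and 14462 CPM, above all day 7 values, and Sox11 and Mmp12 lie at 0 in all day 14 pools.

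Among regeneration-associated genes, the set that injured neurons switch on, Sox11 fell. This transcription factor, which promotes axon regrowth, lies at chr12:27334264-27342574. It stood at 181, 251 and 51.0 CPM at day 7 and had 0 counts in all 3 day 14 pools, at least 3369-fold lower when 3 counts are allowed over the day 14 group (edgeR adjusted p = 0.0282). The call was lost without day 7 replicate 2 (adjusted p = 0.175, at least 2623-fold) and with replicates 1 and 2 of day 7 summed (0.107), without day 7 replicate 1 (0.0514), and without any 1 of the day 14 libraries (0.119 to 0.187). Sox11 was low in the AAV-GFP pools, at 1.92, 0.109 and 11.8 CPM at day 7 and 0.941, 0.362 and 0.752 CPM at day 14.

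The wider list had lower values at day 14 in 22 of its 25 tested members, 7 of them at an unadjusted p under 0.05 and 10 without overlap, with Sox11 alone past the test and a median of -2.04. Of all genes, 7.52% were lower at that p and 10.6% were lower without overlap. Ecel1, an endopeptidase induced by nerve injury, stood at 134, 829 and 41.9 CPM at day 7, against 0 in all day 14 pools, at least 6281-fold lower (edgeR adjusted p = 0.278), or 1978-fold without day 7 replicate 2. Basp1, a growth cone membrane protein, stood at 728, 1227 and 410 CPM against 110, 187 and 114 CPM (-2.64 ± 0.68 SE, edgeR adjusted p = 0.356). Atf3, a stress-induced transcription factor, stood at 9.73, 60.8 and 52.2 CPM against 0.436, 0 and 0 CPM, and Jun at 252, 163 and 150 CPM against 36.6, 13.9 and 18.1 CPM. In these 4 genes no day 14 pool reached the lowest day 7 pool. Gap43, a growth cone protein, overlapped, with 626, 163 and 1104 CPM against 71.6, 410 and 32.7 CPM. The list sum was 4365, 4803 and 12154 CPM at day 7, with Npy, a neuropeptide, at 8889 CPM in replicate 3, and 483, 1854 and 466 CPM at day 14. Means of log2(CPM + 1) over the list were 5.21, 4.61 and 5.22 at day 7 and 2.71, 3.03 and 2.72 at day 14. Replicate 2 was thus the highest day 14 pool by sum and by mean. In the fit with it alone at day 14, the list median was -3.60 and that of all genes -0.95. Those medians cover the larger set of genes that passed the filter there and cannot be set directly against -2.04.

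Injury, stress and death genes had a median of -1.06, with 18 of 23 tested members lower, 5 of them at an unadjusted p under 0.05 and 0 past the test. Lower values at that p were found in 7.52% of all genes. Ddit3, the CHOP factor of the integrated stress response, stood at 326, 1622 and 235 CPM at day 7, against 63.6, 57.0 and 50.4 CPM at day 14 (-3.97 ± 0.92 SE, edgeR adjusted p = 0.285), and the difference was -2.01 without day 7 replicate 2. Bbc3, the pro-death protein PUMA, stood at 54.7, 14.9 and 5.00 CPM and was at 0 in every day 14 pool, at least 591-fold lower (edgeR adjusted p = 0.371), or 204-fold without day 7 replicate 1. Its ratio of day 7 replicate 2 to replicate 1 was 0.273, near the most common ratio of that pair, and the 204-fold value still includes replicate 2. Outside that list, Cdkn1a, the cell cycle inhibitor p21, stood at 124, 260 and 156 CPM against 3.59, 0.122 and 2.29 CPM (-6.60 ± 2.05 SE, edgeR adjusted p = 0.371); the cell cycle list it belongs to had 5 higher and 7 lower values and a median of -0.12, or -0.38 with bounds. Hsp90aa1, a heat shock chaperone, stood at 2544, 3715 and 2215 CPM against 624, 629 and 825 CPM, in a heat shock list with 7 higher and 13 lower values (median -0.65).

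Immediate early genes, which neurons and glia transcribe within minutes of a stimulus, had lower values at day 14 in 20 of 21 tested members. Of these, 9 were at an unadjusted p under 0.05, 11 had no overlap and 0 passed the test, and the median was -2.55. Among all genes 7.52% were lower at that p and 10.6% were lower without overlap. Fos stood at 815, 731 and 224 CPM at day 7, against 63.2, 136 and 110 CPM at day 14 (-2.55 ± 0.66 SE, edgeR adjusted p = 0.354). Egr1 stood at 767, 166 and 109 CPM against 50.7, 65.8 and 32.0 CPM (-2.60 ± 0.72 SE, or -1.66 without day 7 replicate 1). Egr4, a factor of the same family, stood at 206, 41.1 and 5.54 CPM and at 0 in all day 14 pools, at least 2045-fold lower, or 466-fold without day 7 replicate 1. The ratio of day 7 replicate 2 to replicate 1 was 0.216 in Egr1 and 0.2 in Egr4, near the most common ratio of that pair. The values without replicate 1 still include replicate 2, whose independence was not tested. The list sum was 4987, 3899 and 1204 CPM at day 7 and 397, 1229 and 679 CPM at day 14, so the sums overlapped between day 7 replicate 3 and day 14 replicate 2. With day 14 replicate 2 alone the median was -2.28.

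Interferon-stimulated genes are the antiviral genes that interferons switch on. Ifit1, which binds viral RNA, fell from 96.2, 23.9 and 54.1 CPM to 0.630, 0.0815 and 0.160 CPM (log2 difference -7.40 ± 1.15 SE, edgeR adjusted p = 0.0282). In the AAV-GFP pools it stayed present, with 216, 35.4 and 153 CPM at day 7 and 486, 47.4 and 451 CPM at day 14. The difference between the viruses in the day effect was -9.15 ± 1.42 SE (adjusted p = 0.142), which does not pass the threshold. The Ifit1 call held without day 7 replicate 2 (adjusted p = 0.0216), with replicates 1 and 2 summed (0.0286) and without day 7 replicate 3 (0.0367), and was lost without day 7 replicate 1 (0.0514) or without any 1 of the day 14 libraries (0.0668 to 0.25).

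Of 30 tested interferon-stimulated genes, 27 had lower values, 9 at an unadjusted p under 0.05 and 8 without overlap, and the median was -1.55. Over all genes, 7.52% were lower at that p and 10.6% were lower without overlap. Tgtp1, an interferon-inducible GTPase, stood at 135, 30.5 and 12 CPM against 0.145, 0 and 0.106 CPM (-9.22 ± 1.55 SE, edgeR adjusted p = 0.0544); reads of the near-identical Tgtp2 may be counted in it. In Tgtp1 and Ifit1 the ratio of day 7 replicate 2 to replicate 1 was 0.226 and 0.249, close to the most common ratio of that pair. Irgm1, another such GTPase, stood at 157, 36.0 and 158 CPM against 9.84, 0.489 and 24.8 CPM. The list sum was 1286, 1118 and 1766 CPM at day 7 and 276, 468 and 571 CPM at day 14, without overlap. It was 1459 to 3392 CPM in the AAV-GFP pools at day 7 and 725 to 9502 CPM at day 14. With day 14 replicate 2 alone the median was -2.22, and without the microglia-rich day 7 replicate 3 it was -1.25.

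The promoters of these genes show what the group shares in sequence. Windows from 250 bases before to 50 after the start (RefSeq, GRCm38.p6) were matched for 23 tested members and searched on both strands for the interferon-stimulated response element, searched as GAAA, any 2 bases and GAAA. It was found in 16 of the 23 and in 7 of the 8 with a lower value at an unadjusted p under 0.05 (Xaf1 being the other), against 1079 of 27025 genes (3.99%) with a promoter in the table. The list was chosen as genes that interferons switch on, so this contrast describes the choice of genes and not these pools. A match is a description and not a bound site. One match is shown for each of the 7, in the gene's direction, with the motif or its reverse complement in capitals.
Ifit1, chr19:34640775-34640804, plus strand: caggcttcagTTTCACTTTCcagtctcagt
Tgtp1, chr11:48992304-48992333, minus strand: tccaggaatcGAAACTGAAAcctacctgac
Irgm1, chr11:48871425-48871454, minus strand: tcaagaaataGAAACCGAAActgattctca
Igtp, chr11:58199512-58199541, plus strand: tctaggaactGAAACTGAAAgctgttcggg
Gbp3, chr3:142559989-142560018, plus strand: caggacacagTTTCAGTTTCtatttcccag
Oas1a, chr5:120907520-120907549, minus strand: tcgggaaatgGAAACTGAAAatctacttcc
Ifih1, chr2:62646206-62646233, minus strand: gaagagaatcGAAACAGAAAccgatctg
The immediate early genes had no match shared by most members. The cyclic AMP response element TGACGTCA was in 2 of 17 tested members with a promoter, against 2.03% of all genes. The CArG box was in 1 of the 17, against 1.81%. Only exact matches within these windows were searched, and Egr1 had no window. Variant or more distant elements would therefore be missed, and these counts do not show that the genes lack them.

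Antigen presentation genes had lower values at day 14 in 13 of 17 tested members, 7 of them at an unadjusted p under 0.05 and 0 past the test (median -1.90). The share of all genes lower at that p was 7.52%. B2m, the light chain of class I molecules, stood at 1021, 534 and 3062 CPM against 196, 424 and 115 CPM (-2.39 ± 0.72 SE), and H2-D1, a class I heavy chain, at 1028, 2390 and 1834 CPM against 233, 609 and 215 CPM (-2.37 ± 0.74 SE). H2-Aa, a class II chain, stood at 7.61, 3.03 and 394 CPM against 0, 0.0815 and 0 CPM, so its high value was that of the microglia-rich day 7 replicate 3. Mmp12, the macrophage elastase, stood at 96.9, 21.6 and 275 CPM and at 0 in every day 14 pool, at least 2855-fold lower (edgeR adjusted p = 0.0544), or 1416-fold without that replicate. In the AAV-GFP pools Mmp12 was at 0, 0.0547 and 0.234 CPM at day 7 and at 0 throughout day 14. The microglia and macrophage sums of those pools reached 3072 CPM at day 7 and 11374 CPM at day 14. Mmp12 thus did not follow these sums across the series. Complement and inflammation genes had a median of -4.89, or -3.90 with bounds, and 14 of 16 lower values; without day 7 replicate 3 the median was -2.32. The microglia and macrophage sums beside these groups are those given above, and their part in the differences was not tested.

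Metabolic genes had values in both directions, and 0 of those named here passed the test. Eno1, the glycolytic enzyme enolase, stood at 17686, 9094 and 14722 CPM at day 7, against 38988, 35961 and 31815 CPM at day 14 (log2 difference 1.51 ± 0.30 SE, edgeR adjusted p = 0.197). Aldoa, an aldolase, stood at 13109, 5311 and 10951 CPM against 17260, 19186 and 24083 CPM (1.23 ± 0.30 SE). Of 23 glycolysis genes 16 had higher values, 4 at an unadjusted p under 0.05, with a median of 0.66; Eno2, the neuronal enolase, went the other way with 508, 330 and 197 CPM against 125, 164 and 155 CPM. Prdx1, a peroxide-reducing enzyme, stood at 536, 117 and 406 CPM against 1662, 1177 and 1433 CPM (2.27 ± 0.51 SE). Sgk1, a glucocorticoid-induced kinase, stood at 7.66, 3.27 and 6.08 CPM against 110, 25.2 and 58.2 CPM (3.66 ± 0.72 SE, edgeR adjusted p = 0.197), whereas the AAV-GFP pools held 455, 463 and 128 CPM and then 105, 61.5 and 87.8 CPM. The difference between the viruses for Sgk1 was 5.40 ± 0.98 SE (adjusted p = 0.264).

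Cytosolic ribosomal protein genes had lower values in 55 of 68 members, 14 at an unadjusted p under 0.05 and 22 without overlap, with 0 past the test and a median of -0.90. Of all genes, 7.52% were lower at that p and 10.6% were lower without overlap. The ribosomal protein sum was 14387, 24728 and 20866 CPM at day 7 and 11318, 13671 and 8360 CPM at day 14. Without day 7 replicate 2 the median was -0.39. Among the 14 mitochondrially encoded genes 12 had higher values (median 0.48, or 0.06 to 0.84 with 1 library left out and -0.41 with day 14 replicate 2 alone), among them mt-Cytb at 11815, 6328 and 31380 CPM against 65437, 20359 and 53410 CPM. Nuclear genes of oxidative phosphorylation had a median of 0.03 over 57 members and the proteasome 0.24 over 33; under DESeq2 size factors, where all genes stood at -0.19, these became -0.21 and 0.08, and without day 14 replicate 2 the proteasome median was -0.14.

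Genes of neuronal transmission had mostly lower values. Synaptic vesicle genes had lower values in 23 of 31 tested members (median -0.73), sodium and calcium channels in 18 of 24 (-0.97), and amacrine cell markers in 13 of 15 (-1.86), with 0 past the test in each. Cplx2, a complexin that clamps vesicle fusion, stood at 95.7, 254 and 50.7 CPM against 3.63, 1.67 and 1.33 CPM (-6.13 ± 1.23 SE, edgeR adjusted p = 0.197). In the AAV-GFP pools Cplx2 was at 0.320, 1.09 and 0.117 CPM and then at 3.45, 8.44 and 1.71 CPM, and the difference between the viruses was -9.39 ± 1.63 SE (adjusted p = 0.249). Syt4, a synaptotagmin, stood at 704, 1416 and 308 CPM against 117, 135 and 134 CPM (-2.83 ± 0.69 SE, or -1.69 without day 7 replicate 2), and Tac1, the substance P precursor, at 841, 159 and 213 CPM against 0, 0 and 1.01 CPM. Potassium channels (median -0.19), inhibitory transmission (-0.41), growth cone and guidance genes (-0.33) and axonal cytoskeleton genes (-0.40) lay closer to the median of all genes. Without day 14 replicate 2 the medians were -0.44 for potassium channels, -0.77 for inhibitory transmission, -0.97 for growth cone and -1.42 for cytoskeleton genes. They were then -1.51 for synaptic vesicle genes, -1.38 for sodium and calcium channels, -1.37 for amacrine cell markers and -0.27 for all genes. Of the lists closer to all genes, the cytoskeleton genes alone then lay beyond the sodium and calcium channels.

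Basic helix-loop-helix factors, the family of Olig1, were listed together with Id genes and with Sox genes, which are not of that family. This list had a median of 0.61, with 15 of 25 tested members higher. Apart from Sox11 none passed. Sox2, a factor of retinal glia, stood at 1.52, 0.878 and 18.4 CPM against 36.7, 39.3 and 34.6 CPM (2.74 ± 1.12 SE), and Hes5, a Notch target, at 4.78, 1.04 and 3.31 CPM against 115, 21.6 and 12.8 CPM. Id2, an inhibitor of helix-loop-helix factors, stood at 27.0, 936 and 49.0 CPM against 19.4, 16.4 and 22.6 CPM (-4.54 ± 1.26 SE, or -0.69 without day 7 replicate 2). Without day 7 replicate 2 the list median was 0.20, and with day 14 replicate 2 alone it was -0.12.

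**Figure D4:**
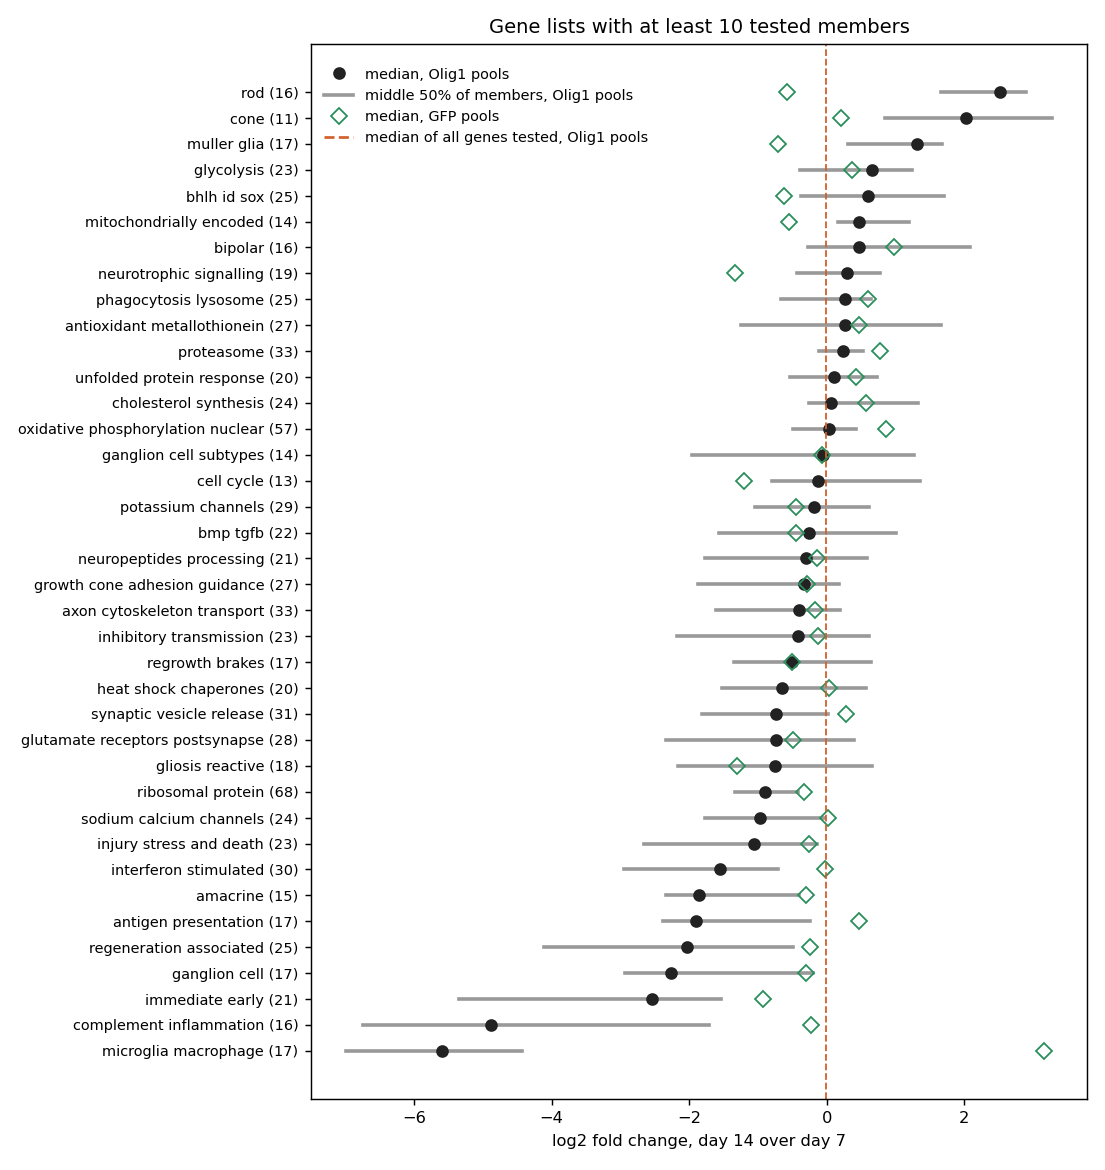
Median log2 difference (day 14 over day 7) of each gene list with at least 10 tested members, numbers of members in brackets; black points are the Olig1 pools with bars for the middle 50% of members, green diamonds the medians in the GFP pools, and the dashed line the median of all genes in the Olig1 pools. Rod (2.53) and cone (2.03) markers lie highest, and microglia (-5.59), complement (-4.89) and immediate early genes (-2.55) lowest.

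The same interval with AAV-GFP rests on 6 other libraries. There 0 genes passed edgeR's test, with 1540 (10.3%) at an unadjusted p under 0.05 (675 higher, 4.5%, and 865 lower, 5.77%), 816 past DESeq2's Wald test and 17 past limma voom. The days did not overlap in 593 higher (3.96%) and 1567 lower (10.5%) genes. Across the 14985 genes, which are not independent, the log2 differences of the 2 viruses correlated at r = 0.0584. Of the 1127 genes lower at an unadjusted p with Olig1, 167 (14.8%) were so with GFP, which is 19.3% of the 865 such GFP genes; 60 were higher there at that p. The test of the difference between the viruses passed for 0 genes in edgeR (1484, or 9.9%, at an unadjusted p under 0.05, with 685 positive, 4.57%, and 799 negative, 5.33%; smallest adjusted p 0.142, Ifit1) and for 631 in DESeq2. List medians with GFP were -0.25 for regeneration-associated genes, -0.92 for immediate early genes, -0.02 for interferon-stimulated genes, -0.58 for rod markers and -0.71 for Müller glia markers.

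**Figure D5:**
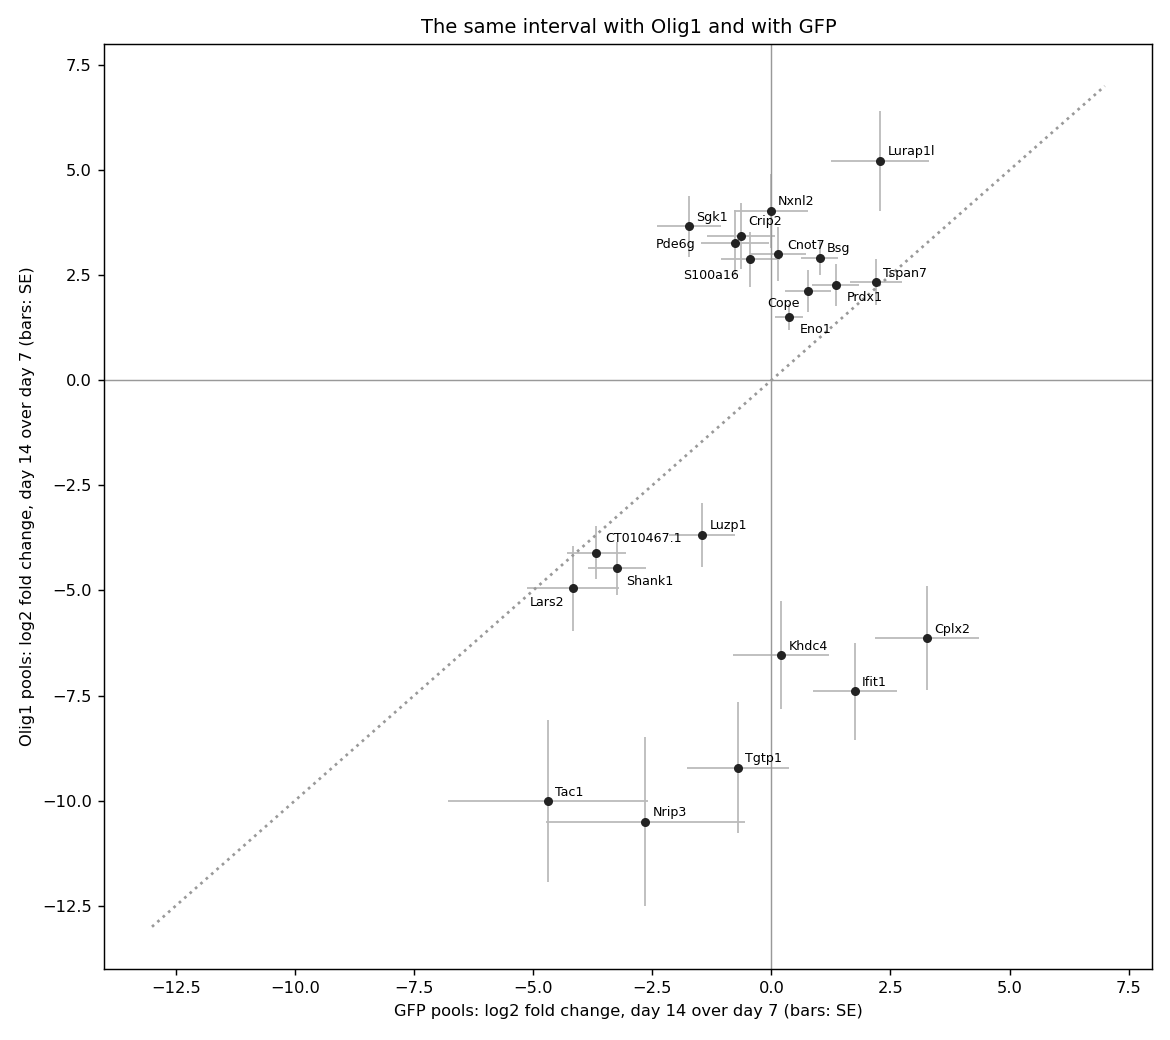
log2 difference of day 14 over day 7 with GFP (x) and with Olig1 (y), with SE bars, for the genes of the plot by library that had counts at both days; the dotted line marks equal differences. Shank1, CT010467.1 and Lars2 lie low on both axes, Ifit1 (-7.40 against 1.75) and Cplx2 (-6.13 against 3.26) are low on the y axis and above 0 on the x axis, and Sgk1 lies at 3.66 against -1.73.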

How the data were processed

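The deposited values were raw counts per Ensembl gene, in a table of the series and a file per sample, which the authors made with FastQC, HISAT2 and HTSeq on mm10, per the submitters' processing notes. For versions, annotation and strandedness the sources used here give nothing. The per-sample files of Olig1 day 7 replicate 2 and day 14 replicate 3 lacked 270 and 2853 genes, so the series table was used; 0 of the genes in both differed. GENCODE M21 gave symbols and GRCm38 coordinates for 54165 genes.

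Counts of all 12 libraries were fitted by group with edgeR 4.0.16 (quasi-likelihood, robust, TMM, filterByExpr at its default minimum of 10 counts) under R 4.3.3, adjusted by Benjamini-Hochberg over all genes. CPM were computed on total counts. Zero groups got a bound at 3 pooled counts, and 1 CPM was added in log2 marker sums. The code was tested on simulated data. Members, the 48 gene lists and the naming rule were chosen with earlier results of these data known. Named were Olig1 and called genes filled to 12 non-overlapping genes per side by p. The fill took annotated protein-coding genes only, without predicted gene models. Also named were up to 4 called or the 3 smallest-p members of each list, and a panel of 26. Ifih1, Igtp, Gbp3, Oas1a, Xaf1, Irgm1, Npy, Gria3, Eno2 and Hes5 were added after their values were seen. Some genes named by the rule are not reported here. Alternatives were DESeq2 1.42.0 (size factors, Wald), limma 3.58.1 voom, filters, fewer groups, a replicate block and left-out libraries. Figures used Python 3.11.15 and matplotlib 3.10.9. A count of 0 allows up to 3 counts of a library's total, for counting error only.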

Additional observations from a re-analysis of the deposited data

Results flagged for a closer look

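The astrocyte marker sum differed in opposite directions under the 2 viruses. In the Olig1 pools it was 133, 70.7 and 141 CPM at day 7 and 214, 179 and 275 CPM at day 14, higher in every day 14 library (log2 difference 0.987, exact permutation p = 0.1, the smallest that 3 against 3 can give). In the GFP pools it was 501 to 783 CPM at day 7 and 89.8 to 378 CPM at day 14, lower in every library. The difference between the viruses was not tested. Aqp4, a water channel that is also on the Müller glia list, stood at 113, 29.9 and 126 CPM against 144, 164 and 252 CPM. It made up most of the sum in every day 14 Olig1 pool and in day 7 replicates 1 and 3. Gfap stood at 0, 0.160 and 5.95 CPM against 13.8, 2.08 and 21.2 CPM.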

How the results depend on the processing

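Of the 22 alternatives, these moved the count of 5 genes by over 1.5 times: DESeq2 size factors gave 0, the DESeq2 Wald test 782 (250 higher, 532 lower), voom 313 (78 higher, 235 lower), no filter 59, the 6 libraries alone 0, day 14 replicate 2 alone 0, and that with day 7 replicate 3 also left out (chosen after seeing the data) 0. Leaving out 1 library gave 0 to 10, with 0 without day 14 replicate 1 or 3, 1 (Bsg) without day 14 replicate 2, 2 without day 7 replicate 1 and 10 without day 7 replicate 3. The stricter filter gave 7 (Mmp12 and Tgtp1 added), and summing day 7 replicates 1 and 2, also added later, gave 4. GFP counts became 816 (Wald), 17 (voom) and 13 (no filter), and 0 to 2 with 1 library left out; the difference between viruses became 631 (Wald), 40 (no filter) and 0 to 1. The causes were not tested. DESeq2 size factors shifted the median of all genes from -0.01 to -0.19. Deviations from group means correlated at r -0.0274 to 0.0187 between same-numbered Olig1 libraries of the 2 days, and at -0.0311 to 0.0252 between the rest. Between the viruses at day 7 they correlated at 0.0226 to 0.0424 (same number) and -0.0262 to 0.000759 (other number). At day 14 this was -0.0594 to -0.0246 and -0.00499 to 0.0422. Such small values in pools of few cells cannot decide whether the numbers mark pairs or batches. The replicate block gave 5 genes (4 shared, with Ecel1 for Sox11), 0 for GFP and 1 for the difference.

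Among 154 named genes, 17 changed sign under some alternative, and none of the 17 had passed the test. With day 14 replicate 2 alone these were Gnat1 (-1.87), Gnb3 (-2.98), Canx (-0.26), Rgr (-0.074), Rgs5 (-5.41), Flt1 (-0.92), Kdr (-0.81) and Pdgfrb (-2.17); with day 7 replicate 3 also left out, Gnat1 (-1.96), Gnb3 (-1.54), Canx (-0.58), Rgr (-0.67), Flt1 (-0.98), Igkc (-0.13) and Gap43 (0.14). Without day 7 replicate 2 they were Rtn4 (0.68), Scn4b (0.22), Pecam1 (1.83), Ighm (-0.39), Vtn (2.83) and Apoe (1.11), and with it summed to replicate 1 Ighm (-0.28), Vtn (1.05) and Apoe (0.65). Without day 7 replicate 1 they were Igkc (-0.07), Ighm (-0.32) and Sncg (-0.10), without day 7 replicate 3 Igkc (-0.11), and without day 14 replicates 1, 2 and 3 in turn Rgr (-0.84), Vtn (0.13) and Sncg (-3.67), and Apoe (0.20). DESeq2 size factors turned Igkc (-0.0128) and Sncg (-0.21), the Wald test Igkc (-0.015) and Sncg (-0.20), voom Vtn (2.15), Sncg (-2.20) and Apoe (0.67), the replicate block Vtn (1.49), Sncg (-2.14) and Apoe (0.34), and no filter Apoe (0.0044). The bipolar cell marker sum turned to -0.34 and -0.29 without replicate 1 of day 7 or of day 14, and the lens crystallin sum to -0.48 as a mean of log2 values and to -0.071 without day 14 replicate 1. The far ends of the ranges with 1 library left out were -2.43 for Rtn4, -5.30 for Scn4b, 6.13 for Rgr, -2.85 for Pecam1, 2.99 for Igkc, 4.84 for Ighm, -0.62 for Vtn, -0.38 for Apoe, 0.27 for the bipolar sum and 0.70 for the lens crystallin sum.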

Other observations

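Single pools stood out for genes of rare cell types. Opn4, the photopigment melanopsin of intrinsically photosensitive ganglion cells, was at 2163 CPM in day 14 replicate 2, against 2.08 and 58.2 CPM in the other day 14 pools and 0, 0.0798 and 51.6 CPM at day 7. Haemoglobin Hba-a1 was at 1327 CPM in day 7 replicate 2, against 11.4 and 52.4 CPM in replicates 1 and 3 and 0.291 to 1.34 CPM at day 14. Spp1, osteopontin, was at 1165 CPM in the same replicate, against 0.707 and 28.6 CPM. Opn1sw, the short-wavelength cone opsin, was at 230 CPM in day 14 replicate 3 and at 2.37 and 2.28 CPM in replicates 1 and 2. T cell markers had 0 counts at day 7 and 0.291 to 14.1 CPM at day 14.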
